A study of Mus musculus with 9 samples.

Results

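The genes described here are 45 components of TGF-β and BMP signalling, measured by 3′ mRNA sequencing in cultured mouse ankle synovial fibroblasts (SFs). They were chosen by gene symbol with earlier results of these data known, and all 45 were present among the 49548 genes of the deposited tables. The shares of all genes given beside their counts are therefore descriptions and not tests of the set. Each of 3 groups held 3 libraries. WT SFs carried no transgene and were labelled as not treated. SFs of hTNFtg mice, which overexpress a human TNF transgene and develop destructive polyarthritis, were either labelled as not treated or were kept for 48 hours with 1 μg/ml infliximab (Remicade), an antibody that neutralizes human TNF. All mice were CBA C57BL/6J animals aged 8 weeks, and cells carrying the leukocyte antigen CD45 were depleted from the cultures at passage 1. The study's methods call the 3 libraries of a group biological replicates and name a vehicle for cultures without drug, and they do not say whether the cells of several mice were pooled. A culture grown from whole digested joints can hold cells other than fibroblasts, and in such bulk samples fewer cells of one type cannot be told apart from less RNA per cell.

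TGF-β, activin and BMP ligands are secreted dimers that bring together type I and type II serine/threonine kinase receptors, which phosphorylate receptor-regulated SMADs. TGF-β is secreted in a latent complex held in the matrix by latent TGF-β binding proteins, whereas BMPs are held in check mainly by secreted antagonists that bind them before they reach a receptor. SMADs of the TGF-β and activin branch drive matrix and contractile genes. SMADs of the BMP branch induce the Id genes, which encode inhibitors of basic helix-loop-helix transcription factors, together with the feedback inhibitor Smad6. In joints the pathway is known for cartilage and bone formation and for the matrix output of fibroblasts.

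The deposited values were normalized counts, in which 1 sequenced read was worth between 0.534 and 1.10 normalized counts in 8 of the 9 libraries. Replicate 1 of the hTNFtg group was shallower, with about 613343 reads against 3829160 to 9014698 in the others, so that 1 read was worth 6.23 normalized counts there. A value of 0 in that library allows a level of up to 18.7 normalized counts, against 1.60 to 3.31 elsewhere, taking 3 reads as the limit that a count of 0 allows (counting error only). Fibroblast genes were high in every library, their 10 values summing to between 32087 and 48992 normalized counts. Macrophage genes were present in the hTNFtg cultures in spite of the depletion: the 9 of 10 listed markers that were found summed to 177 to 648 in WT, 3032 to 6270 in hTNFtg and 1987 to 4020 in infliximab-treated hTNFtg cultures. Ptprc, which encodes CD45 itself, was at 0 to 3, 9 to 31 and 8 to 28. Chondrocyte genes summed to 1307 to 2123, 254 to 414 and 368 to 758 in the same order, and osteoblast genes to 692 to 1248, 93 to 164 and 169 to 310. Hepatocyte genes reached 954 in replicate 3 of the infliximab group and 19 to 67 in the other 8 libraries.

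Comparing hTNFtg with WT SFs asked which genes of the pathway differed in fibroblasts of arthritic mice. Of the 4 Id genes, 3 were lower in hTNFtg SFs, with Id4 10.7-fold and Id1 5.30-fold below WT, and so were the ligands Gdf10, Bmp5, Bmp4 and Tgfb2. The antagonists moved in both directions, since Chrdl1 fell 9.32-fold and Nog also fell while Grem1 and Bmper rose 2.62-fold and 2.74-fold. The activin subunit gene Inhba rose 3.31-fold and the type I BMP receptor gene Bmpr1b 4.64-fold. In all, 16 of the 45 members passed the study's rule, which asks for a change of 1 or more on the log2 scale in either direction and for a P, before adjustment, below 0.05, tested here with limma on log2(normalized count + 1). Of all 28522 genes tested, 6.39% passed it. Among the members 5 were higher in hTNFtg, against 3.35% of all genes, and 11 were lower, against 3.04%. The higher members numbered 2 without WT replicate 2 and 9 with edgeR. In either direction 12 and 21 members passed in these fits, against 5.41% and 8.54% of all genes.

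After Benjamini-Hochberg adjustment over all genes tested with limma, 2 members passed 0.05, Id4 (adjusted p = 0.00598) and Chrdl1 (adjusted p = 0.0161), where 0.48% of all genes passed. The count was 0 without WT replicate 1, 2 or 3 or hTNFtg replicate 1, 1 without hTNFtg replicate 2 and 2 without hTNFtg replicate 3. The values of the WT and hTNFtg libraries did not overlap for 22 of the 45 members, against 11.4% of all genes. The median log2 fold change was -0.24 over the members and 0.00 over all genes. Among the 39 members with a mean of at least 10 normalized counts over the 9 libraries, 15 passed the rule, against 8.98% of all genes with such a mean over the 6 libraries compared. Without the shallow hTNFtg replicate 1, 18 members passed, against 8.34% of all 28244 genes tested.

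**Figure D1:**
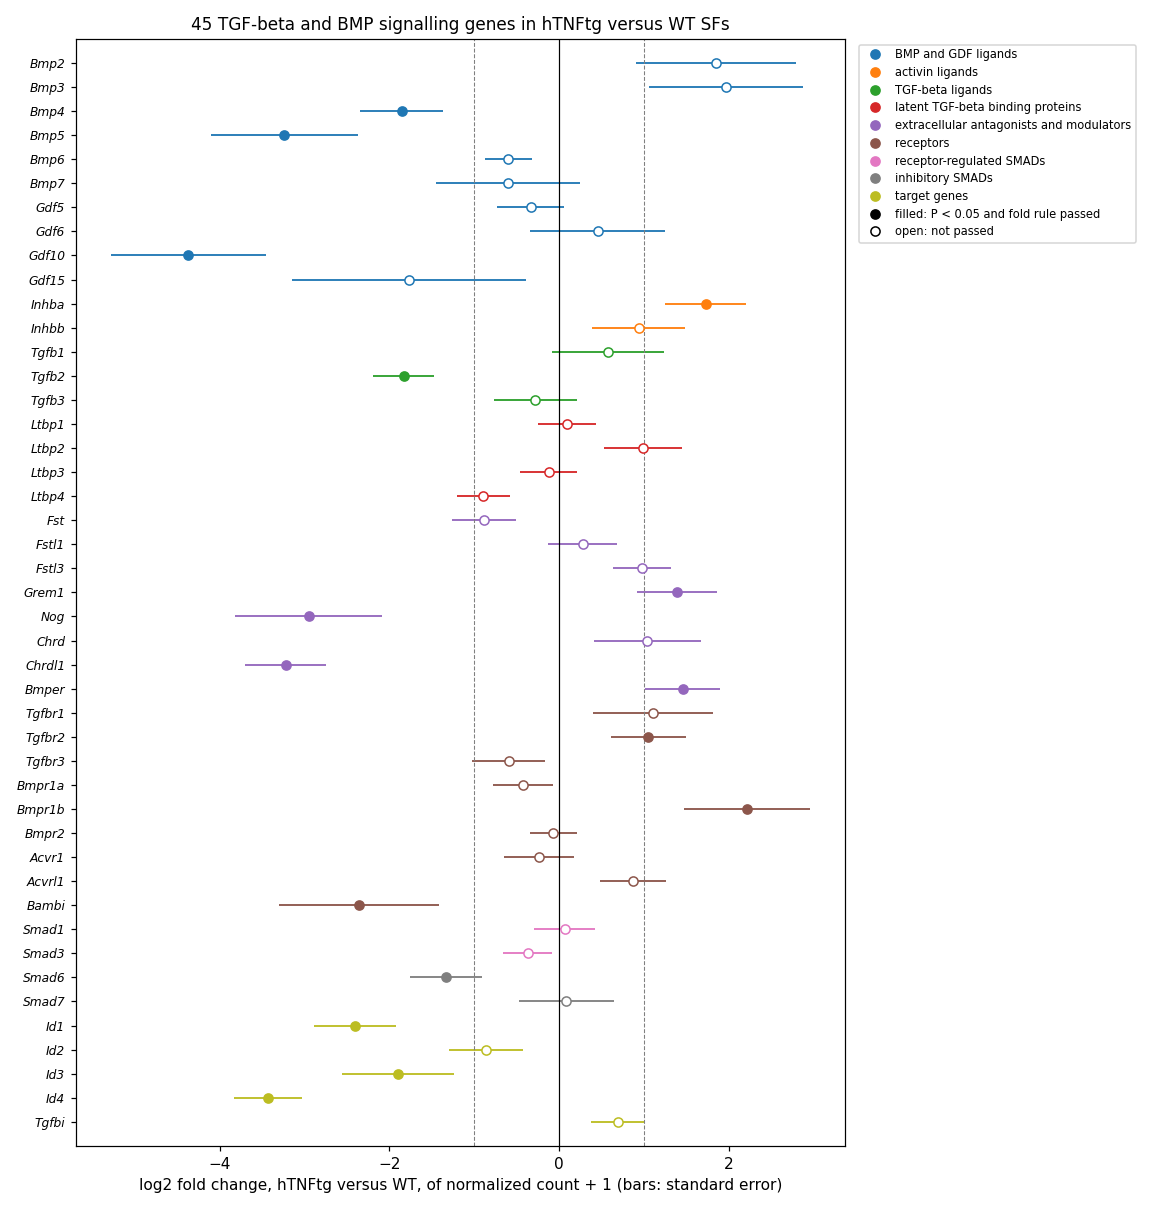
Log2 fold change of hTNFtg versus WT for the 45 members, coloured by role (points, limma estimate on log2(normalized count + 1); bars, standard error; dashed lines, a log2 fold change of 1 in size). Filled points passed the rule on P and fold; 11 of the 16 lie to the left of 0, among them 3 of the 5 target genes.

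Among the 10 BMP and GDF ligands, 3 fell in hTNFtg SFs and none rose. Gdf10, which encodes a distant BMP family member also called BMP3b, lies at chr14:33923587-33935280 on the plus strand of mm10. Its values were 20, 22 and 72 normalized counts in WT, 0, 0 and 3 in hTNFtg and 0, 0 and 2 in infliximab-treated hTNFtg SFs. The listed values of WT were above all transgenic ones, although the 0 in the shallow hTNFtg replicate 1 allows a level close to the 2 lower WT values. In hTNFtg versus WT the log2 fold change was -4.37 ± 0.91 (SE; adjusted p = 0.0728), and in library-scaled reads WT exceeded hTNFtg by 22.4-fold (95% interval 10.1 to 62.1, counting error only). On this log2 scale it was the largest fall of the 45 members. With 5 added to each value instead of 1 it was -2.67, a smaller fall than those of Id4 (-3.21) and Chrdl1 (-2.71). Gdf10 remained past the rule without hTNFtg replicate 1, at -4.04, and without hTNFtg replicate 3, at -5.04.

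Bmp5, whose protein supports skeletal and soft tissue growth, stood at 35, 38 and 37 in WT, 0, 7 and 7 in hTNFtg and 11, 15 and 4 in infliximab-treated SFs. Its log2 fold change was -3.23 ± 0.87 in hTNFtg versus WT (adjusted p = 0.194) and -2.23 without hTNFtg replicate 1, the library listed at 0. Bmp4, a potent osteogenic ligand, stood at 119, 341 and 527 in WT, 56, 74 and 106 in hTNFtg and 73, 90 and 52 after infliximab. WT varied widely and yet its lowest library was above every transgenic one, with a log2 fold change of -1.86 ± 0.49 (adjusted p = 0.187). Without hTNFtg replicate 1 the value for Bmp4 was -1.64 with a P above 0.05, and without WT replicate 1 it was -2.46. The other 7 ligands did not pass the rule. Bmp6, a BMP known for iron control, ranged from 334 to 463 in WT and from 227 to 265 in hTNFtg, with a log2 fold change of -0.60 ± 0.28. Gdf15, a stress-induced ligand, was listed at 0 in hTNFtg replicate 1 and between 63 and 118 in the other WT and hTNFtg libraries. Bmp2, Bmp3, Bmp7, Gdf5 and Gdf6 had means under 10 normalized counts and did not pass. Bmp2, an osteogenic ligand, stood at 5, 1 and 0 in WT and at 6, 15 and 4 in hTNFtg (1.85 ± 0.94), and it passed with edgeR (2.24), with array quality weights (2.63) and without WT replicate 1 (2.54). Bmp3, which encodes a BMP that opposes bone formation, stood at 0, 1 and 1 and at 19, 2 and 3 (1.97 ± 0.91), and it passed with robust variances, in the fit of all 9 libraries and without hTNFtg replicate 2 (2.49).

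Of the 2 activin subunit genes, Inhba rose in hTNFtg SFs. Inhba, which encodes the subunit of activin A, stood at 90, 61 and 23 in WT, 125, 164 and 236 in hTNFtg and 327, 127 and 522 after infliximab. The highest WT library was below every transgenic one. In hTNFtg versus WT it rose by 1.73 ± 0.48 on the log2 scale (adjusted p = 0.211). The macrophage marker sum given above also separated WT from both transgenic groups, and its part in the rise of Inhba was not tested. Inhbb, which encodes the subunit of activin B, ranged from 15 to 23 in WT and from 18 to 58 in hTNFtg and did not pass, although it passed with edgeR (1.07) and without hTNFtg replicate 2 (1.45).

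Of the 3 TGF-β ligand genes, Tgfb2 fell and the other 2 did not pass. Tgfb2 stood at 586, 344 and 632 normalized counts in WT, 100, 137 and 204 in hTNFtg and 168, 200 and 211 after infliximab. Even the lowest WT value exceeded every transgenic one, with a log2 fold change of -1.83 ± 0.36 (3.55-fold; adjusted p = 0.0558). Tgfb1, the isoform released in inflammation, ranged from 11 to 23 in WT and from 12 to 63 in hTNFtg. Tgfb3 ranged from 54 to 159 and from 56 to 154. None of the 4 latent TGF-β binding protein genes passed in this comparison. Ltbp2, whose product binds fibrillin microfibrils, ranged from 1303 to 2317 in WT and from 1875 to 5775 in hTNFtg, a log2 fold change of 0.99 just under the limit of 1, and passed in 4 of 17 alternatives: without hTNFtg replicate 1 (1.37), without WT replicate 3 (1.26), with quantile normalization (1.07) and with edgeR (1.10). Ltbp3, which helps secrete and store latent TGF-β, ranged from 633 to 956 and from 605 to 1073, and Ltbp1, which binds latent TGF-β to the matrix, from 165 to 256 and from 154 to 330.

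**Figure D2:**
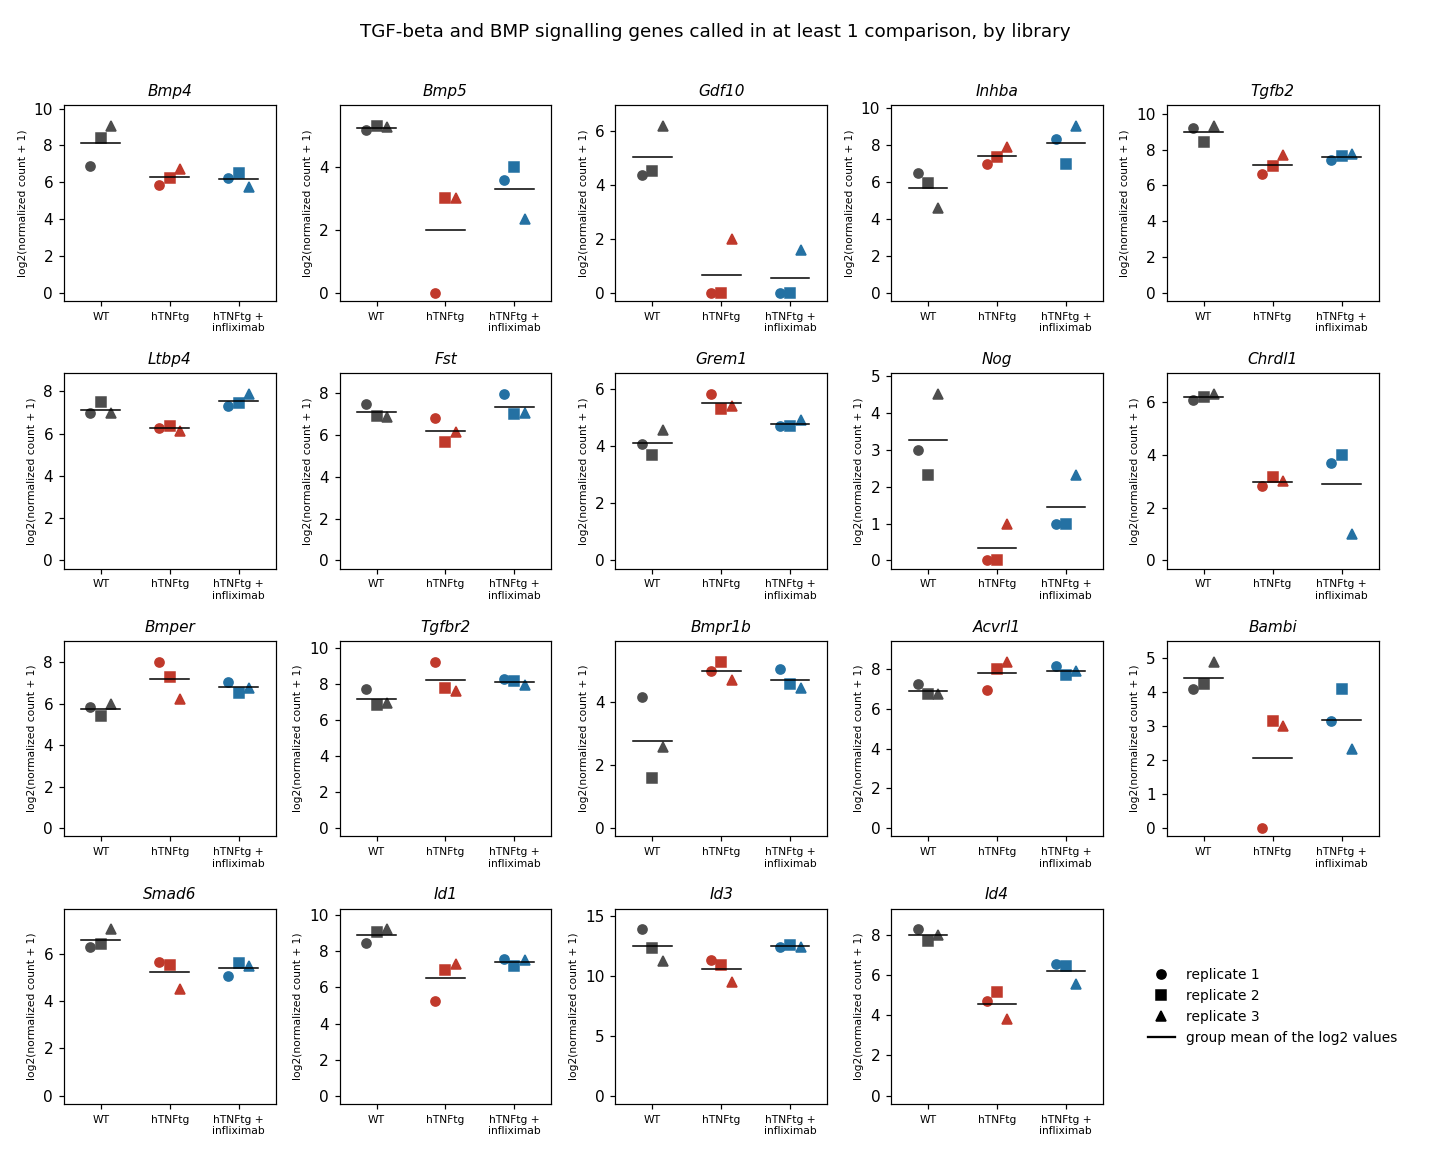
Log2(normalized count + 1) of the 19 members that passed the rule in at least 1 comparison, for each of the 9 libraries (symbols, replicates; lines, group means of the log2 values). WT libraries stood alone at the top for Bmp4, Bmp5, Gdf10, Tgfb2, Chrdl1, Smad6, Id1 and Id4. For Ltbp4, Fst, Id3 and Id4 every infliximab library lay above every untreated hTNFtg library.

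The secreted antagonists divided by gene, with 2 raised, 2 lowered and 4 not passing in hTNFtg SFs. Chrdl1, which encodes the BMP-binding protein chordin-like 1 and lies at chrX:143285674-143394262 on the minus strand of mm10, stood at 68, 73 and 79 in WT, 6, 8 and 7 in hTNFtg and 12, 15 and 1 after infliximab. The values of WT lay far above those of both transgenic groups, the 6 in hTNFtg replicate 1 being worth about 1 read. Between these groups the log2 fold change was -3.22 ± 0.47 (adjusted p = 0.0161), and it stayed between -3.31 and -3.13 when any 1 library was left out. The adjusted p of Chrdl1 ranged from 4.94e-07 to 0.478 over the alternatives.

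Nog, which encodes the BMP antagonist noggin, stood at 7, 4 and 22 in WT, 0, 0 and 1 in hTNFtg and 1, 1 and 4 after infliximab. So few reads lay behind the hTNFtg values that WT exceeded hTNFtg by 19.7-fold with a 95% interval from 5.14 to 167 (counting error only). The log2 fold change of Nog was -2.95 ± 0.87 (adjusted p = 0.251), and -2.33 without WT replicate 3. Grem1, which encodes gremlin 1, an antagonist of BMP2 and BMP4, rose from 16, 12 and 23 in WT to 56, 39 and 41 in hTNFtg, with 25, 25 and 29 after infliximab. Its 3 groups did not overlap at all, and the log2 fold change of hTNFtg versus WT was 1.39 ± 0.47 (adjusted p = 0.373).

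Bmper, whose product binds BMPs and can inhibit or aid their signalling, stood at 56, 41 and 62 in WT, 262, 155 and 75 in hTNFtg and 133, 91 and 109 after infliximab. All transgenic libraries were above WT, with a log2 fold change of 1.46 ± 0.44 in hTNFtg (adjusted p = 0.272), which lost the call without WT replicate 2 (1.29, P above 0.05). Fstl3, which encodes an activin-binding follistatin relative, lay just below the fold limit at 0.98 ± 0.34, from 49, 49 and 55 in WT to 131, 76 and 104 in hTNFtg, and passed without WT replicate 3 (1.03) or hTNFtg replicate 2 (1.18). Fstl1, a secreted glycoprotein abundant in SFs, ranged from 4369 to 4748 in WT and from 5064 to 6112 in hTNFtg, and its log2 fold change of 0.28 did not pass. Chrd, the chordin gene, ranged from 9 to 18 and from 14 to 56, and its log2 fold change of 1.04 ± 0.63 had a P above 0.05, passing with array quality weights and without hTNFtg replicate 3 (1.52).

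Of the 9 receptor genes, 2 rose, 1 fell and 6 did not pass in hTNFtg SFs. Bmpr1b, which encodes a type I BMP receptor, stood at 17, 2 and 5 in WT, 31, 38 and 25 in hTNFtg and 32, 23 and 21 after infliximab. Its log2 fold change was 2.22 ± 0.74 (adjusted p = 0.364), and the P did not pass without WT replicate 2 (1.62) or without hTNFtg replicate 2 (2.07). It was 2.91 without WT replicate 1. Tgfbr2, the type II TGF-β receptor gene, stood at 212, 110 and 120 in WT, 598, 217 and 195 in hTNFtg and 302, 279 and 247 after infliximab. Here WT and hTNFtg overlapped, and the log2 fold change of 1.05 ± 0.44 (adjusted p = 0.58) rested on single libraries and on the fit. It was 0.54 without hTNFtg replicate 1, 0.88 without WT replicate 2 and 0.94 without WT replicate 3, each with a P above 0.05. Tgfbr2 also lost its call with array quality weights (0.84), with a filter at a mean of at least 10 and with no filter on low values. It was called in 11 of 17 alternatives. Bambi, which encodes a pseudoreceptor without a kinase domain that dampens signalling, stood at 16, 18 and 29 in WT, 0, 8 and 7 in hTNFtg and 8, 16 and 4 after infliximab. The log2 fold change was -2.36 ± 0.94 in hTNFtg (adjusted p = 0.52) and -1.33 without hTNFtg replicate 1, and the P did not pass without WT replicate 1 (-2.52), WT replicate 2 (-2.44) or WT replicate 3 (-2.11).

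Acvr1, a type I receptor gene of the BMP branch, and Tgfbr3, which encodes the co-receptor betaglycan, had the highest means of the 6 that did not pass. Acvr1 ranged from 240 to 529 in WT and from 211 to 534 in hTNFtg, and Tgfbr3 from 211 to 358 and from 100 to 361. Tgfbr3 passed without hTNFtg replicate 1 (-1.07). Tgfbr1, the type I TGF-β receptor gene, ranged from 7 to 25 in WT and from 17 to 87 in hTNFtg (1.11 ± 0.70, P above 0.05), while the BMP receptor genes Bmpr1a and Bmpr2 were at -0.42 ± 0.35 and -0.07 ± 0.28. Inside the cell, the receptor-regulated SMAD genes Smad1, of the BMP branch, and Smad3, of the TGF-β branch, did not pass. Smad1 ranged from 48 to 61 in WT and from 51 to 75 in hTNFtg, and Smad3 from 206 to 274 and from 149 to 203. Of the 2 inhibitory SMAD genes, Smad6 fell and Smad7 did not pass. Smad6, which blocks mainly BMP receptors, stood at 77, 84 and 131 in WT, 50, 46 and 22 in hTNFtg and 33, 48 and 44 after infliximab. Every WT library was above every transgenic one, and the log2 fold change was -1.33 ± 0.42 (adjusted p = 0.3), falling short of the rule without WT replicate 3 (-1.10, P above 0.05) and without hTNFtg replicate 3 (-0.97). Smad7, which blocks both branches, ranged from 12 to 34 in WT and from 17 to 31 in hTNFtg.

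The 5 target genes were the 4 Id genes and Tgfbi, a TGF-β-induced matrix protein gene, and 3 of them fell in hTNFtg SFs. Id4, at chr13:48261427-48264036 on the plus strand of mm10, stood at 307, 204 and 249 in WT, 25, 34 and 13 in hTNFtg and 94, 87 and 46 after infliximab. The 3 groups formed separate steps without overlap. In hTNFtg versus WT the log2 fold change was -3.42 ± 0.40 (adjusted p = 0.00598), between -3.72 and -3.06 with any 1 library left out, and the adjusted p ranged from 5.46e-12 to 0.478 over the alternatives.

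Id1, a widely used readout of BMP signalling, stood at 352, 528 and 594 in WT, 37, 122 and 159 in hTNFtg and 188, 146 and 184 after infliximab. WT lay above both transgenic groups, with a log2 fold change of -2.41 ± 0.48 in hTNFtg (adjusted p = 0.0617), and it was past the rule with any 1 library left out, at -1.78 without the shallow hTNFtg replicate 1. Id3 stood at 14739, 4964 and 2431 in WT, 2585, 1913 and 697 in hTNFtg and 5220, 6013 and 5415 after infliximab. WT spread widely, and its lowest library was below the highest hTNFtg library. The log2 fold change of -1.90 ± 0.66 (adjusted p = 0.4) no longer passed without WT replicate 1 (-1.20), WT replicate 2 (-1.99) or hTNFtg replicate 3 (-1.34), with robust variances or with no filter on low values, each with a P above 0.05, and it was -2.50 without WT replicate 3. Id2 and Tgfbi did not pass. Id2 ranged from 128 to 438 in WT and from 96 to 137 in hTNFtg and passed with edgeR (-1.10) and without WT replicate 2 (-1.20), while Tgfbi ranged from 96 to 165 and from 174 to 247, a log2 fold change of 0.70 ± 0.32.

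Chondrocyte and osteoblast marker sums were lower in both transgenic groups than in WT, as given above, and their part in the results on ligands, antagonists and Id genes was not tested. Col2a1, the defining collagen gene of cartilage, stood at 60, 51 and 94 in WT, 75, 88 and 37 in hTNFtg and 55, 133 and 49 after infliximab, so that it overlapped between all groups. Acan, the aggrecan gene, stood at 16, 16 and 5 in WT, 0, 1 and 0 in hTNFtg and 0, 4 and 0 after infliximab, and Ibsp, the bone sialoprotein gene, at 76, 44 and 26, 6, 1 and 0, and 4, 4 and 1. Bglap, the osteocalcin gene, was at most 5 in any library. Most of the chondrocyte sum was Sox9, and most of the osteoblast sum was Alpl, Sp7 and Runx2, genes that also stand on the list of BMP targets described further on.

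The 250 bases before the start site were read from RefSeq (GRCm38.p6) for 31 of the 45 members, in 38 entries. No entry was found for Gdf5, Fst, Smad7, Acvrl1, Bmp2, Bmp7, Bambi, Chrdl1, Nog, Bmp3, Tgfbr3, Tgfb3, Id1 and Gdf6. They were searched on both strands for GGCGCC, a GC-rich sequence bound by SMADs of the BMP branch, and for CAGAC, the short SMAD-binding element. GGCGCC was present in 10 of the 38 member promoters (26.3%) and in 9.59% of all 32851 promoters of the same length, and CAGAC in 18 of the 38 (47.4%) and in 42.2% of all. The promoters with GGCGCC were those of Bmpr1a, Bmpr2, Chrd, Grem1, Id2, Id4, Ltbp4, Tgfbi and Tgfbr1. Of these genes Id4 passed as lower and Grem1 as higher in hTNFtg versus WT, and the others did not pass there. The palindrome GTCTAGAC, which does not contain CAGAC, was in 0 of the 38 and in 0.167% of all. Printed here are the promoters of the member with the smallest adjusted p (Id4, chr13:48260866-48261115, plus strand), of the ligand that fell most (Gdf10, chr14:33923337-33923586, plus strand) and of the feedback inhibitor that fell with them (Smad6, chr9:64022060-64022309, minus strand), with any GGCGCC or CAGAC in capitals. They are written 5′ to 3′ along the gene, and the RefSeq start of Id4 lies upstream of the start in the files' annotation.
Id4: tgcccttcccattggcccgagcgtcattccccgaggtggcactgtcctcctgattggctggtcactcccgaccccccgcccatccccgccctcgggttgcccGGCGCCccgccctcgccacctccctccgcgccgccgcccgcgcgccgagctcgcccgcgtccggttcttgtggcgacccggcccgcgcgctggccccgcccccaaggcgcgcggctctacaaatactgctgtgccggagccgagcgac
Gdf10: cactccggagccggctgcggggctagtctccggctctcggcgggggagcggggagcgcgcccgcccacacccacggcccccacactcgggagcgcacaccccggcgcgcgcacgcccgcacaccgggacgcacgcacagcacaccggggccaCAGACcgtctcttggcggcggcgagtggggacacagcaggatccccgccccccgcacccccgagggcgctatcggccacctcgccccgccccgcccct
Smad6: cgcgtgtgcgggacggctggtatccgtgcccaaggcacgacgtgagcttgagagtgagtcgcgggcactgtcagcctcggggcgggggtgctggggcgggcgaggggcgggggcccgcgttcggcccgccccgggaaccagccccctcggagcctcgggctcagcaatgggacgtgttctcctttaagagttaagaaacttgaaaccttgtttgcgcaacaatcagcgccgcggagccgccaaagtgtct
The Id4 promoter held 1 GGCGCC and no CAGAC, the Gdf10 promoter 1 CAGAC and no GGCGCC, and the Smad6 promoter none of these letters. A match is a description of the sequence only.

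Comparing infliximab-treated with untreated hTNFtg SFs asked which of these genes differed once human TNF was neutralized for 48 hours. Id3 and Id4 rose 3.66-fold and 3.14-fold, Ltbp4 rose 2.47-fold and Fst rose 2.20-fold, and no member fell in this fit. These 4 were the members called among the 44 tested, against 2.43% of all 28540 genes in either direction and 1.49% in the higher direction. Gdf5 was at 0 in these 6 libraries and was not tested. By limma 0 members passed an adjusted p of 0.05, as did 0% of all genes, while 5 members and 1026 of all genes had an unadjusted P under 0.05. In the quasi-likelihood test of edgeR, run on approximate read numbers, 2 members and 168 of all genes passed an adjusted p of 0.05. The groups did not overlap for 6 of the 44, against 7.44% of all genes, and the median log2 fold change of the members was -0.09, against 0.00 for all genes. Without hTNFtg replicate 1, 5 members passed the rule, against 4.99% of all genes. Without infliximab replicate 3, 5 passed as well, against 1.86% of all genes. In some fits 1 member was called as lower: Ltbp2 without hTNFtg replicate 1 (-1.14), Fstl3 without hTNFtg replicate 2 (-1.02) or infliximab replicate 3 (-1.06), and Bmp2 with array quality weights (-1.46). The untreated libraries here are the same as in the comparison with WT, so that the fold changes of the 2 comparisons share their values.

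Id3, at chr4:136143497-136145755 on the plus strand of mm10, had all 3 treated libraries between 5220 and 6013 normalized counts and all untreated ones between 697 and 2585. Its log2 fold change was 1.87 ± 0.47 (adjusted p = 0.803), and it was between 1.32 and 2.26 with any 1 library left out. Id4 had its treated libraries between 46 and 94 and its untreated ones between 13 and 34, with a log2 fold change of 1.65 ± 0.47 (adjusted p = 0.803) and a range of 1.28 to 1.97 with any 1 left out. Both passed the rule in every one of the 17 alternatives run. For Id1 the groups overlapped, since hTNFtg replicate 3 at 159 lay above the lowest treated library at 146, and its log2 fold change of 0.93 ± 0.45 did not pass, being 0.30 without hTNFtg replicate 1 and passing without hTNFtg replicate 3 (1.34).

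Ltbp4, which encodes a latent TGF-β binding protein of elastic fibres and lies at chr7:27305136-27337692 on the minus strand of mm10, stood at 124, 178 and 124 in WT, 75, 80 and 70 in hTNFtg and 158, 174 and 235 after infliximab. The untreated hTNFtg libraries were below all others. The rise with infliximab was 1.30 ± 0.30 on the log2 scale (adjusted p = 0.803) and stayed between 1.14 and 1.42 with any 1 library left out. Fst, which encodes the activin antagonist follistatin, stood at 181, 119 and 116 in WT, 112, 50 and 70 in hTNFtg and 250, 127 and 134 after infliximab. Again every untreated hTNFtg library was the lowest of the 3 groups. The log2 fold change of Fst with infliximab was 1.14 ± 0.38 (adjusted p = 0.803), and it fell short of the rule without hTNFtg replicate 2 (0.86) or infliximab replicate 1 (0.82). In hTNFtg versus WT, Ltbp4 and Fst had log2 fold changes of -0.89 ± 0.31 and -0.88 ± 0.37, under the fold limit, and Fst passed there without hTNFtg replicate 1 (-1.18) and with array quality weights (-1.21).

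The other roles gave no call with infliximab: 0 of 9 BMP and GDF ligands tested, 0 of 2 activin ligands, 0 of 3 TGF-β ligands, 0 of 9 receptors, 0 of 2 receptor-regulated and 0 of 2 inhibitory SMADs. Inhba was called as higher without infliximab replicate 2 (1.28), and Nog, among the antagonists, with array quality weights (1.26). The log2 fold changes of the 9 receptors ran from -0.44 to 1.14, the highest being Bambi, whose groups overlapped. The macrophage sum overlapped between untreated and treated cultures, as did the chondrocyte sum, whereas the osteoblast sum was 93 to 164 and 169 to 310. The sum of 8 mural cell markers was 353 to 648 in untreated and 693 to 735 in treated hTNFtg cultures. In WT it was 376 to 628. Rgs5 went from 0, 3 and 4 in untreated to 13, 21 and 9 in treated cultures, against 26, 31 and 25 in WT. Notch3 went from 25, 36 and 32 to 44, 44 and 161, against 94, 53 and 31 in WT. Cspg4, Abcc9, Mcam and Higd1b overlapped between untreated and treated cultures. Kcnj8 and Myh11, the latter a defining gene of smooth muscle, were at most 1 in any library. The part of these sums in the rises of Id3, Id4, Ltbp4 and Fst was not tested.

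The remaining comparison, infliximab-treated hTNFtg with WT SFs, asked what still differed from WT after treatment. In it 14 of the 45 members passed the rule, against 6.81% of all 28243 genes, with 4 higher against 3.86% and 10 lower against 2.95%. The higher members numbered 1 without WT replicate 2 and 2 without WT replicate 3 or infliximab replicate 1. In either direction 10 members passed without WT replicate 2, against 6.71% of all genes, and 10 without infliximab replicate 1, against 6.79%. Adjusted p passed 0.05 for 4 members by limma, against 0.74% of all genes: Id1 (0.0281), Gdf10 (0.0287), Id4 (0.0327) and Tgfb2 (0.0407). With any 1 of the 6 libraries left out, and with all 9 libraries in 1 fit, 0 members passed this adjusted threshold. Of all genes, 0 or 1 passed with a library left out and 69 with all 9 in 1 fit. Among the 39 members with a mean of at least 10 over the 9 libraries, 13 passed, against 7.67% of all genes with such a mean over the 6 libraries compared. The groups did not overlap for 15 of the 45, against 14.2% of all genes, and the median log2 fold change was -0.06, against 0.00 over all genes. The count was 14 also without infliximab replicate 3, the library in which hepatocyte genes were high, against 7.03% of all genes. Without WT replicate 3 it was 9, against 6.19% of all genes. The WT libraries are those of the hTNFtg versus WT comparison, so that values set side by side are not independent.

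Of the members, 13 passed in both comparisons with WT, namely Bambi, Bmp4, Bmp5, Bmper, Bmpr1b, Chrdl1, Gdf10, Id1, Id4, Inhba, Nog, Smad6 and Tgfb2. For the ligands, the log2 fold changes in treated versus WT SFs were -4.51 ± 0.71 for Gdf10, -1.97 ± 0.47 for Bmp4, -1.93 ± 0.47 for Bmp5, -1.38 ± 0.25 for Tgfb2 and 2.45 ± 0.56 for Inhba. In library-scaled reads WT exceeded treated SFs for Gdf10 by 47.2-fold (95% interval 15.9 to 232, counting error only). Chrdl1 was at -3.31 ± 0.69, Smad6 at -1.18 ± 0.28, Id1 at -1.48 ± 0.23 and Id4 at -1.78 ± 0.29. The value for Chrdl1 was -2.36 without infliximab replicate 3, in which it stood at 1, and that for Bmp4 was -2.58 without WT replicate 1. Smad6 missed the fold limit without WT replicate 3 (-0.95).

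Bmper was at 1.06 ± 0.25 and missed the fold limit without WT replicate 2 (0.89) or infliximab replicate 1 (0.92). Bmpr1b was at 1.92 ± 0.64, and its P did not pass without WT replicate 2 (1.32), WT replicate 3 (1.82), infliximab replicate 1 (1.74) or infliximab replicate 2 (1.97), while it was 2.61 without WT replicate 1. Nog, at -1.84 ± 0.73, and Bambi, at -1.22 ± 0.54, overlapped between the groups. Nog lost its call without WT replicate 1 (-1.98), WT replicate 3 (-1.22), infliximab replicate 1 (-1.62) or infliximab replicate 2 (-1.62). Bambi lost its call without WT replicate 1 (-1.38), WT replicate 2 (-1.30), WT replicate 3 (-0.97), infliximab replicate 1 (-1.21) or infliximab replicate 3 (-0.79), and was called in 7 of 17 alternatives.

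Id3, Grem1 and Tgfbr2 passed in untreated hTNFtg versus WT and not in treated versus WT. For Id3 the difference was -0.02 ± 0.53, with a 95% interval from -1.20 to 1.16. For Grem1 it was 0.64 ± 0.37 (95% interval -0.18 to 1.47) and for Tgfbr2 0.96 ± 0.26 (95% interval 0.38 to 1.54). Tgfbr2 missed the fold limit alone, its treated libraries lay above WT, and it passed without WT replicate 1 (1.25), without infliximab replicate 3 (1.04) and with array quality weights (1.12). Acvrl1, which encodes the type I receptor ALK1, passed in treated SFs, at 1.02 ± 0.22 (adjusted p = 0.0821). It stood at 154, 108 and 106 in WT, 125, 259 and 336 in hTNFtg and 291, 210 and 243 after infliximab, so that WT overlapped with untreated but not with treated SFs. In untreated hTNFtg versus WT its log2 fold change was 0.87 ± 0.39, under the fold limit, and it passed there without hTNFtg replicate 1 (1.28), with array quality weights (1.11) and with edgeR. Treated and untreated SFs differed by 0.15 ± 0.36. In treated versus WT SFs Acvrl1 was under the fold limit without WT replicate 2 (0.94), WT replicate 3 (0.93) or infliximab replicate 1 (0.90). Markers of endothelial cells, in which ALK1 is best known, were at most 6 normalized counts in any library apart from Egfl7, which was at 280 to 295 in WT, 106 to 236 in hTNFtg and 178 to 236 after infliximab. The part of such cells in the values of Acvrl1 was not tested. The other 26 members passed in none of the 3 comparisons.

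**Figure D3:**
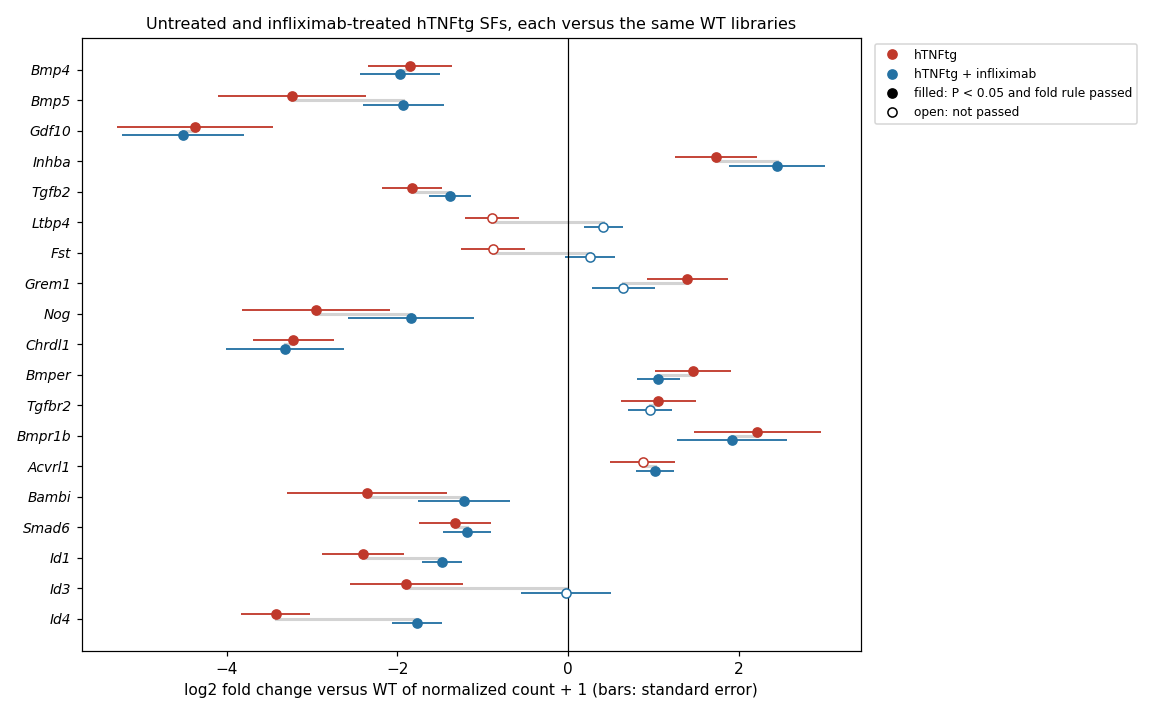
Log2 fold change versus WT of the 19 members that passed the rule at least once, in untreated (red) and infliximab-treated (blue) hTNFtg SFs, both set against the same WT libraries (points, limma estimate on log2(normalized count + 1); bars, standard error; filled, passed the rule). Gdf10 and Bmp4 had nearly the same value in both, Id4 moved from -3.42 to -1.78, and Id3 from -1.90 to -0.02.

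**Figure D4:**
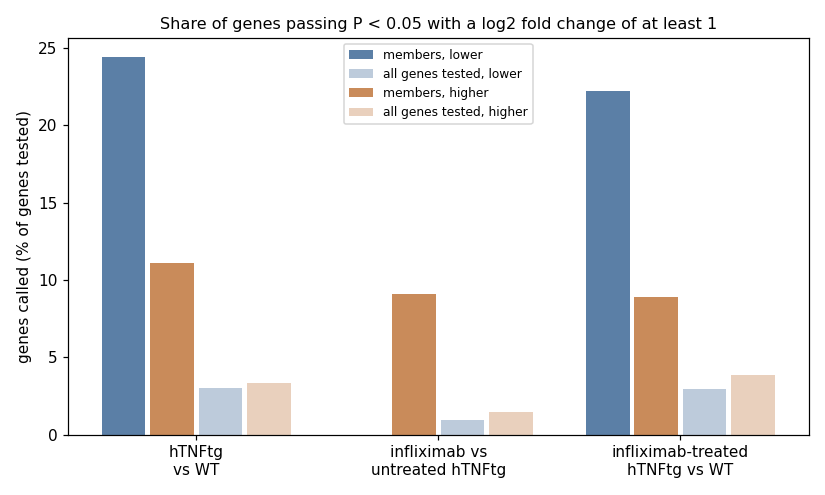
Share of the members and of all genes tested that passed the rule on P and fold, split by direction, in each of the 3 comparisons (bars, per cent of genes tested). The bars for lower members in hTNFtg and in treated SFs versus WT stand at 24.4% and 22.2%, and no member passed as lower with infliximab than without.

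Genes of the pathway outside the 45 were read from lists, whose counts stand against the shares of all genes given above (3.35% higher and 3.04% lower in hTNFtg versus WT, 1.49% and 0.936% with infliximab, 3.86% and 2.95% in treated versus WT SFs). Of 75 other ligands, receptors, SMADs and modulators, 73 were found and 59 tested in hTNFtg versus WT, where 8 rose, 4 fell and 47 did not pass, with a median log2 fold change of 0.20. Without hTNFtg replicate 1, 7 rose and 3 fell. Among those with a mean of at least 10 normalized counts the largest changes were in Nrros (3.27 ± 0.92), which anchors latent TGF-β on myeloid cells, and Smad9 (-3.09 ± 0.84), a BMP-branch SMAD. Next came Smoc1 (-2.78 ± 0.45), a matrix protein that modulates BMP signalling. Without hTNFtg replicate 1 Smad9 was at -2.50. Nrros was at 2.18 without WT replicate 1 and at 4.14 without WT replicate 2. Nrros stood at 0, 14 and 5 in WT and at 56, 35 and 38 in hTNFtg, moving with the macrophage sum, whose part in it was not tested. With infliximab 1 of the 63 tested passed, Gdf9, at -2.19 ± 0.89, which did not pass without infliximab replicate 1 (-1.75). The fallen genes numbered 2 without any 1 of the untreated libraries, and 1 gene rose without hTNFtg replicate 1 or 3. In treated versus WT SFs 6 of 63 rose and 4 fell, among them Smad9 (-2.46) and Smoc1 (-1.95). The risen genes numbered 3 without infliximab replicate 3.

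Of 22 other BMP target genes, 20 were tested in hTNFtg versus WT, and 8 fell, 1 rose and 11 did not pass. The fallen genes numbered 4 without WT replicate 2, 5 without WT replicate 3 and 6 without hTNFtg replicate 1, and the risen ones 2 without hTNFtg replicate 1 or 3. The median log2 fold change of this list was -0.85, against 0.00 over all genes. The largest falls among genes with a mean of at least 10 were in Alpl, the alkaline phosphatase gene of mineralizing cells (-5.85 ± 1.19), Sp7, an osteoblast transcription factor gene (-5.24 ± 0.70), Sox9, a chondrogenic transcription factor gene (-2.95 ± 0.32), and Dlx5, a homeobox gene of bone (-2.82 ± 1.00). Alpl, at 0 in the shallow hTNFtg replicate 1, was at -4.07 without that library and at -7.32 without hTNFtg replicate 2. Dlx5 did not pass without WT replicate 2 (-2.37), WT replicate 3 (-2.51) or hTNFtg replicate 1 (-1.88), and was at -3.58 without WT replicate 1.

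With infliximab 3 of the 22 rose and none fell, while 0 rose without infliximab replicate 2, 1 without infliximab replicate 1 and 2 without infliximab replicate 3 or hTNFtg replicate 1. Sox9 went from 174, 272 and 179 in untreated to 527, 572 and 281 in treated SFs, against 1160, 1761 and 1939 in WT. Atoh8, a basic helix-loop-helix gene induced by BMP, went from 12, 48 and 31 to 80, 105 and 63, against 199, 156 and 113 in WT. For both genes the treated libraries lay between the other 2 groups without overlap. Their log2 fold changes with infliximab were 1.10 ± 0.33 and 1.58 ± 0.49 (adjusted p = 0.803 for each by limma). Sox9 missed the rule without hTNFtg replicate 1 (0.99), infliximab replicate 1 (0.97) or infliximab replicate 2 (0.91), and Atoh8 without infliximab replicate 2 (1.40). Alpl, listed at 0, 89 and 17 in untreated and at 129, 206 and 48 in treated SFs, overlapped between them, and its rise of 3.22 did not pass without hTNFtg replicate 1 (1.45), infliximab replicate 1 (3.10), infliximab replicate 2 (2.76) or infliximab replicate 3 (3.80). In treated versus WT SFs 7 of the 22 were lower and 2 higher, Sp7 being at -4.08 ± 0.56 (-3.48 without infliximab replicate 3) and Alpl at -2.62 ± 0.48. The lower genes numbered 4 without WT replicate 2 and 5 without infliximab replicate 3, and the higher ones 1 without WT replicate 2.

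All 30 other TGF-β target genes were tested in hTNFtg versus WT, where 3 rose, 6 fell and 21 did not pass, with a median of -0.07. Without hTNFtg replicate 1, 5 rose and 4 fell, and without WT replicate 2, 2 rose and 4 fell. Comp, a cartilage and tendon matrix gene, fell from 5353, 4373 and 7288 in WT to 299, 848 and 550 (-3.42 ± 0.42; adjusted p = 0.00752 by limma). Eln, which encodes elastin, was at -3.18 ± 0.56, Snai2, a transcription factor gene of mesenchymal cells, at -2.78 ± 0.33 and Cilp, a cartilage matrix gene, at -2.57 ± 0.46. With infliximab Comp alone passed, at 1.14 ± 0.46, and not without hTNFtg replicate 1 (0.74), hTNFtg replicate 3 (1.18), infliximab replicate 1 (0.76) or infliximab replicate 2 (1.02). Without hTNFtg replicate 2 or 3, 2 or 3 genes rose. In treated versus WT SFs 4 rose, Ctgf among them, and 4 fell, namely Cilp, Comp, Eln and Snai2. Without WT replicate 1, 7 rose. Eln lost its call without WT replicate 3 (-1.88) or infliximab replicate 2 (-2.28). Ctgf, a matricellular gene induced by TGF-β that is named here after its values were seen, rose there from 7434, 4389 and 5494 in WT to 23925, 12853 and 26136 (1.83 ± 0.34; adjusted p = 0.0487 by limma). No gene of all those tested passed an adjusted p of 0.05 without WT replicate 2, WT replicate 3 or any 1 infliximab library.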

How the data were processed

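Ankle SFs of 3 groups with 3 libraries each were measured by QuantSeq 3′ mRNA sequencing on an Ion Proton. The authors aligned reads to mm10 with TopHat2 and Bowtie2 and counted them per gene. Through metaseqR the counts were normalized and then tested with DESeq. Normalized counts were deposited, rounded to whole numbers (here treated as a score, and as a signal from which whole reads were recovered in hTNFtg replicate 1, where 99.8% of values came back within 0.5). Versions were not given in the sources used here, nor was the use of strand in counting. The deposited log2 and per-length columns (24 columns of per-sample values) and the authors' fold changes, P values and FDRs were not used. hTNFtg values were the same in both tables (0 differences), so all 9 libraries share 1 normalization.

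Members and lists were chosen with earlier results of these data known. Each comparison was fitted over 6 libraries with limma 3.58.1 (R 4.3.3; eBayes with trend) on log2(normalized count + 1), over genes above 0 in at least 1 library. The added 1 shrinks the fold changes of low genes, but a 0 in the shallow hTNFtg replicate 1 can enlarge them. Of the called members at 0 there, Bmp5 and Bambi fell 9.41-fold and 5.12-fold in hTNFtg versus WT on this scale. In library-scaled reads they fell 5.62-fold and 3.22-fold. Gdf10 and Nog went the other way, at 20.7-fold and 7.72-fold on this scale against 22.4-fold and 19.7-fold. A gene was called where it changed by 1 or more on the log2 scale in either direction at a P, before adjustment, below 0.05, as in the study's rule, and Benjamini-Hochberg adjustment ran over all genes tested. The worth of 1 read was estimated from steps between low values, and edgeR 4.0.16 was run on the approximate reads as an alternative; on these reads it called 2437, 1265 and 2047 genes by the same rule in the order of the report (hTNFtg with WT, treated with untreated, treated with WT). The limma fit and the estimate of the worth of 1 read were tested on simulated data, and the edgeR fit was not. The estimated worth of 1 read was within 1% of the true one in 8 of 9 simulated cases. A member was described in every library where it was called or where its groups did not overlap at a mean of at least 10 and a log2 change of 1 or more; others are given by range, up to 2 a role by highest mean, and up to 4 called genes are named per list, by largest fold with a mean of at least 10; a listed gene that this rule would name is not reported here. No gene lengths enter a 3′ count, and levels are not compared between genes.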

Additional observations from a re-analysis of the deposited data

How the results depend on the processing

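The 34 calls of members over the 3 comparisons gave 576 values under the alternatives (pseudocounts of 0.5 and 5, filters on low values, other scalings, weights, robust variances, a replicate block, all 9 libraries in 1 fit, edgeR, and each library left out): 525 were still called, 51 kept their direction without the call and 0 reversed. The number of members called with each library left out ranged from 12 to 18 in hTNFtg versus WT, from 3 to 5 in infliximab-treated versus untreated hTNFtg and from 9 to 14 in infliximab-treated hTNFtg versus WT, the lowest being without WT replicate 3. Adjusted calls moved most: in hTNFtg versus WT 2 members passed, against 0 with no filter, 13 with array quality weights, 12 with edgeR, 8 with robust variances and 0 to 2 with each library left out. Of all genes tested, 137 passed this adjusted threshold, against 0, 1004, 953 and 461 in the same order and 1 to 44 with each library left out. In infliximab-treated hTNFtg versus WT 4 members passed, against 0 with no filter, 14 with edgeR, 13 with robust variances and 0 with each library left out. Of all genes tested, 209 passed there, against 0, 1322 and 1182 in the same order and 0 or 1 with each library left out. The counts thus moved over all genes and not in the members alone, and the cause was not tested. Over all genes, 1823 were called in hTNFtg versus WT and 3540 with array quality weights; in infliximab-treated versus untreated hTNFtg 693 were called, against 2144 with these weights, 1265 with edgeR and 351 with a pseudocount of 5, and in infliximab-treated hTNFtg versus WT 1923 were called, against 1058 with a pseudocount of 5.

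The labels do not say whether replicate numbers pair the samples, and correlations among 3 libraries a group cannot decide it. Deviations of same-numbered libraries correlated at 0.29, -0.14 and 0.35 (WT and hTNFtg), 0.07, 0.20 and 0.27 (hTNFtg and infliximab) and 0.10, -0.15 and 0.01 (WT and infliximab). Other-numbered libraries ranged from -0.49 to 0.24, from -0.26 to 0.13 and from -0.17 to 0.22 in the same order. For hTNFtg and infliximab, each hTNFtg library correlated most with the treated library of its own number. With a replicate block 14, 5 and 14 members were called in the order above, against 5.82%, 2.12% and 6.01% of all genes. At an adjusted p of 0.05, 0 members and 0 of all genes were called with it. Inhba and Smad6 in hTNFtg versus WT and Bambi in infliximab-treated hTNFtg versus WT were not called with the block, no other call was lost to it, and Gdf6 (infliximab-treated versus WT) and Nog (infliximab-treated versus untreated hTNFtg) were called with it alone of the 2 fits. With edgeR the median log2 fold change of all genes in infliximab-treated versus untreated hTNFtg moved to -0.11. Depth limits the low members most, since 1 read in hTNFtg replicate 1 is worth 6.23 normalized counts.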
